A study of Mustela putorius furo with 8 samples.

Results

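The secretoglobins SCGB1A1, SCGB3A1 and SCGB3A2 and the lipid-binding protein gene BPIFB1 were followed through cultured ferret pancreatic ductal epithelium. The 4 genes were chosen by symbol, with earlier results of these data known, out of 27912 annotated genes. Of those genes, 15921 had at least 30 unique molecular identifiers (UMIs, each counting 1 captured RNA molecule) over all libraries. All 4 passed that minimum. The cells came from the ducts of newborn ferrets of 1 to 3 days of age, either wild type (WT) or with both copies of CFTR, the chloride and bicarbonate channel lost in cystic fibrosis, knocked out (CFTR KO/KO, called CF). Ductal cells of both genotypes were grown on dishes to passage 10 and then polarized at an air-liquid interface (ALI), in PneumaCult media made for airway epithelium. One droplet library was made for each of the 2 genotypes on day 2, 5, 7 and 9 of ALI culture, so there were 8 libraries and no group had a replicate. The study states that cells of 3 donors per genotype were pooled, and cells could not be assigned to an animal. A general passage of the sample descriptions also names a longer ALI culture, and the day in each sample title was used.

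Secretoglobins are small secreted proteins that pair into dimers and are best known from the surface fluid of the airways. SCGB1A1 (uteroglobin, or club cell secretory protein) marks airway club cells, SCGB3A2 is made by club cells of the smaller airways, and SCGB3A1 by secretory cells of the larger ones. BPIFB1 belongs to the family of the bactericidal/permeability-increasing protein, whose members bind lipids of bacterial membranes, and is secreted by mucus-producing cells of airway surfaces and glands. In airway epithelium the transcription factors NKX2-1 and FOXA1/FOXA2 act on secretoglobin promoters, SPDEF drives mucous differentiation, and SOX2 sets the identity of the conducting airway.

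The libraries held 1607 to 6224 cells that the authors had retained, 32945 in all, with 34735952 to 114585136 UMIs per library and a median of 14949 to 23427 UMIs per cell. Levels are given as CPM, the UMIs of a gene scaled to a library total of 1000000 UMIs over the retained cells, with an exact 95% Poisson interval that covers counting error only. CF day 7 stood apart, with 411 of its 1607 cells under 3000 UMIs. Over the 8 libraries 148 barcode sequences occurred in 2 libraries or more. KRT19, a duct keratin, lay between 3771.5 and 5113.1 CPM in all libraries, and SOX9, a duct transcription factor, between 3.57 and 11.8 CPM. Several defining markers of other lineages were at or near 0 over all libraries. PTF1A (acinar) and INS (endocrine) had 0 UMIs, PTPRC (immune) 4 and FOXJ1 (ciliated) 13. The immune list also held CD68 at 3.88 to 20.9 CPM and the endocrine list ISL1 at 13.02 to 29.8 CPM. Of the 12 acinar markers only 4 were annotated. Among them GP2 had 196 UMIs, with 1.33 CPM at WT day 9, and CELA1 had 39. The 5 fibroblast markers (of 6) with at least 30 UMIs summed to 2.30 to 5.79 CPM in WT and 1.53 to 29.9 CPM in CF, with COL1A1 at 18.9 and 13.2 CPM on CF days 7 and 9. Their part in the levels of the members was not tested. CFTR itself had 6.57 to 29.5 CPM in WT and 2.50 to 11.4 CPM in CF libraries, from 256 to 621 UMIs in each CF library, so CFTR transcripts were counted in CF although the animals are described as lacking them. The libraries count the 3′ ends of transcripts and do not show whether a transcript is intact.

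SCGB1A1 stayed near one level in WT cultures and all but disappeared from CF cultures after day 2. It held 12.6, 10.1, 9.96 and 12.4 CPM in WT on days 2, 5, 7 and 9. The corresponding CF levels were 10.4, 0.630, 0.979 and 0.440 CPM, from 1063, 45, 34 and 22 UMIs. Thus the CF culture of day 2 (interval 9.77 to 11.0) lay inside the range of the WT libraries, and the 3 later CF libraries lay below all WT libraries with intervals that overlapped none of the WT intervals. As a share of the WT level, CF held 0.827 (0.763 to 0.895) at day 2, 0.0626 (0.0454 to 0.0844) at day 5, 0.0983 (0.0676 to 0.138) at day 7 and 0.0356 (0.0222 to 0.0542) at day 9. On the log2(CPM + 1) scale used for all log2 differences, the mean difference over the 4 days was -2.17 with an SD over days of 1.32, and CF was lower on 4 of 4 days. From day 2 to day 9 the WT level changed by -0.02 and the CF level fell by 2.98. Both the day 2 difference and the steady WT level rested on the richest cluster of each genotype. Without these clusters the day 2 difference turned from -0.25 to 0.63 and the WT change became 1.69. The clusters left out, WT cluster 13 and CF cluster 4, had 682 of 693 and 613 of 626 cells on day 2. Both shifts were therefore set by the choice of clusters.

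SCGB3A2 showed the reverse time course in CF, rising from a low start. WT libraries held 12.7, 9.48, 12.8 and 22.8 CPM in order of day. CF libraries held 0.958, 7.18, 8.29 and 10.1 CPM. The CF day 2 library was the lowest of the 8, clear of the next by its interval (0.778 to 1.17), while the intervals of CF days 7 and 9, but not of CF day 5 (6.57 to 7.83), overlapped that of WT day 5 (8.89 to 10.1). CF to WT ratios were 0.0757 (0.0610 to 0.0929), 0.757 (0.679 to 0.844), 0.649 (0.568 to 0.740) and 0.443 (0.401 to 0.489), so that CF was lower on 4 of 4 days with a mean log2 difference of -1.21 (SD over days 1.11). At day 5 the difference turned from -0.36 to 0.10 without the 13 clusters whose leading genes or depth went against their deposited names, an alternative chosen after seeing the data. Within CF the level at day 9 was 10.5 times (8.48 to 13.2) that at day 2, and within WT it was 1.80 times (1.68 to 1.93).

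BPIFB1 climbed through the WT time course and less so in CF. The WT levels were 1.13, 2.76, 13.8 and 37.8 CPM, each interval clear of the one before. CF levels were 1.57, 0.993, 2.25 and 5.78 CPM. Day 9 over day 2 was 33.3-fold (28.0 to 40.02) in WT and 3.67-fold (3.02 to 4.48) in CF, a log2 change of 4.18 and 1.40. The CF rise rested on CF cluster 7, and without the richest cluster of each genotype the CF change turned to -0.24. That CF cluster had 473 of its 493 cells on day 9, so this turn was set by the choice of cluster. At day 2 CF stood above WT by a ratio of 1.39 (1.09 to 1.76), and from day 5 it stood below, by 0.360 (0.274 to 0.469), 0.163 (0.128 to 0.205) and 0.153 (0.135 to 0.172). With all deposited barcodes, retained or not, the log2 difference at day 5 went from -0.91 to -1.90. The mean log2 difference was -1.34 (SD over days 1.28), with CF lower on 3 of 4 days.

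SCGB3A1 was the sparsest of the 4 genes and its WT peak came from a single cell. Neither day 2 library held a UMI of it, which allows a level of up to 0.0262 CPM in WT and 0.0293 CPM in CF (3 counts of the library total). On days 5, 7 and 9 WT held 5.11, 0.253 and 1.40 CPM and CF 1.25, 1.18 and 1.90 CPM. In the WT day 5 library, 495 of the 517 UMIs sat in 1 cell of WT cluster 32, and without that cell the level was 0.217 CPM. The cell was of ordinary depth, with 17593 UMIs, 3855 genes and 5.72% mitochondrial UMIs, and SCGB3A1 made up 2.81% of its RNA. With the cell the log2 difference between CF and WT at day 5 was -1.44. Leaving out, in each library, the cell with most UMIs of the gene, an alternative chosen after seeing the data, turned it to 0.68. At day 7 the CF level was 4.66 times (2.69 to 8.31) that of WT and at day 9 it was 1.35 times (1.02 to 1.79). The day 9 log2 difference was 0.27. On that day CF cluster 19 held 52 of the 95 CF UMIs, and WT cluster 17 held 57 of the 119 WT UMIs.

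**Figure D1:**
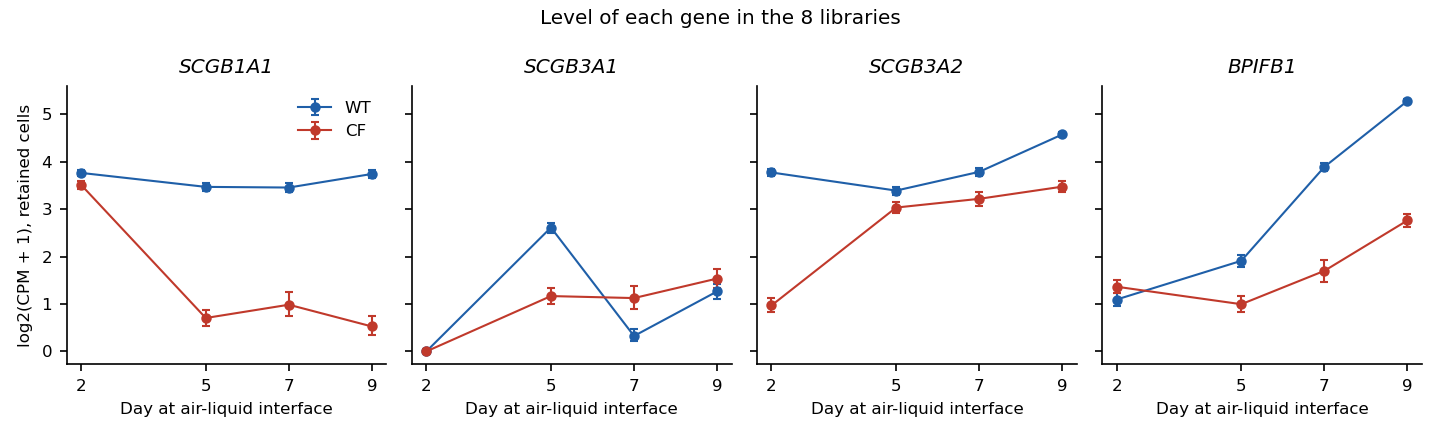
The level of each gene, as log2(CPM + 1) over retained cells, is plotted against the day of ALI culture for WT (blue) and CF (red) libraries, with exact 95% Poisson intervals as bars. SCGB1A1 parted after day 2, SCGB3A2 was lowest in CF at day 2, BPIFB1 rose to 37.8 CPM in WT at day 9, and 1 cell held most of the SCGB3A1 point of WT day 5.

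Against all 15921 genes with at least 30 UMIs, the members moved as follows. Genes under 1 CPM in both libraries compared could not be called on the log2(CPM + 1) scale, which lowers the shares over all genes. The members were also chosen with earlier results of these data known, so these shares are a description and no independent background. At day 2, 1 of the 4 genes (SCGB3A2) was at least 2-fold lower in CF on the log2(CPM + 1) scale, against 3.83% of all genes. At day 5 it was 2 of 4 (SCGB1A1 and SCGB3A1), against 4.13%, and 1 of 4 without the single SCGB3A1-rich cell of WT. At day 7 it was 2 of 4 (SCGB1A1 and BPIFB1), against 2.95%, and at day 9 it was 3 of 4 (all but SCGB3A1), against 3.42%. No member was at least 2-fold lower or higher at all 4 days, as were 1.31% and 0.980% of all genes. Over time, 2 of 4 (SCGB3A1 and BPIFB1) were at least 2-fold higher at day 9 than at day 2 in WT, against 7.36% of all genes. In CF 3 of 4 (all but SCGB1A1) were higher, against 6.04%, and 1 of 4 (SCGB1A1) was lower, against 2.5%. The median log2 difference between CF and WT over all genes lay between -0.04 and 0.10 on the 4 days, beside -0.13, -1.18, -1.38 and -1.81 for the median of the 4 members. Without the single rich cell the day 5 median of the members was -0.64, and without SCGB3A1, which had no UMI at day 2, that of day 2 was -0.25.

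Most UMIs of each gene sat in a few of the deposited clusters, which the authors had made separately in WT (41 clusters) and CF (30 clusters). These clusters were built from all genes, the 4 members included, so their levels are a description. Among WT clusters of at least 50 cells SCGB1A1 ranged from 0 to 216 CPM with a median of 1.05, and 12 of 39 reached 10 CPM. The highest value, in WT cluster 35 (114 cells, median 1897.5 UMIs), rested on 74 of 85 UMIs in 1 cell. Next came WT cluster 13 with 76.1 CPM (71.8 to 80.7) and WT cluster 18 with 59.1 CPM (54.2 to 64.4). WT cluster 13, in which SCGB1A1 was the leading gene, held 26.3% of all WT SCGB1A1 UMIs in 3.91% of the WT UMIs, and the 5 richest clusters held 68.8%. In CF the gene reached 10 CPM in 3 of 29 clusters, and CF clusters 4, 8 and 9 held 87.2% of its UMIs.

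The SCGB1A1-bearing clusters of day 2 were day 2 clusters in both genotypes. In WT, cluster 13 had 682 of its 693 cells on day 2 and supplied 78.2% of that library's SCGB1A1 UMIs. On later WT days other clusters carried the gene: clusters 1 and 7 held 27.8% and 13.9% of the UMIs at day 5, cluster 18 held 41.3% at day 7, and clusters 3 and 7 held 38.8% and 20.4% at day 9. Cluster 18 was led by genes of mucous cells (CLCA1, MUC5B, TFF3 and SPDEF), and clusters 3 and 7 had WFDC2, a secreted protease inhibitor of airway secretory cells, among their leading genes. In CF, clusters 4, 8 and 9 made up 31.4% of the cells at day 2 and held 95.2% of the UMIs, at 24.0 CPM (22.6 to 25.5) against 0.847 (0.631 to 1.11) in the other CF cells of that day. Those clusters fell to 1.24%, 0.187% and 0.0402% of the cells on days 5, 7 and 9. The other CF cells stayed low, at 0.597, 0.980 and 0.440 CPM. Of the 34 UMIs of CF day 7, 29 lay in CF cluster 17, and 1 cell held 20 of the library's UMIs of the gene. The interferon-response genes IFIT3 and ISG15 were among the leading genes of CF cluster 4, and MKI67 and TOP2A, genes of dividing cells, among those of CF cluster 9.

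SCGB1A1 was also unevenly spread within these clusters. In WT the cells with at least 10 UMIs of it numbered 38, 22, 17 and 18 from day 2 to day 9 and held 71.5%, 58.8%, 51.0% and 33.6% of its UMIs. In CF at day 2, 32 such cells held 79.7%. Cells differ in depth, so the share of cells with a UMI was taken after thinning each cell to 3000 UMIs, shallower cells being left out. This share was 1.42% (1.14 to 1.74), 1.53%, 1.78% and 2.18% (1.80 to 2.61) in WT, and 3.63%, 4.41%, 4.86% and 6.74% without thinning. The WT level was thus spread over a larger share of cells with a UMI, with 6.37 UMIs per positive cell at day 2 and 2.87 at day 9, when 57.5% of the positive cells had 1 UMI. At WT day 9 the share was 4.01% in the deposited class named centroacinar progenitor (median 14774 UMIs) and 0.0478% in the class named ductal (median 14706 UMIs). In CF the thinned share was 0.987% at day 2, and then 2 of 2705, 1 of 1196 and 1 of 2265 cells, which at these depths is no more than the limit that a count of 0 allows.

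SCGB3A2 was the most widely spread of the 4. It reached 10 CPM in 12 of 39 WT clusters and 7 of 29 CF clusters, and no WT cluster was at 0. The highest WT clusters of at least 50 cells were 18 with 76.7 CPM (71.1 to 82.7) and 3 with 51.1 CPM (47.8 to 54.6). WT clusters 15, 16 and 13 held 43.7, 43.6 and 43.2 CPM with overlapping intervals, and 1 day 9 cell held 68 of the 495 UMIs of cluster 15, which had 37.7 CPM without it. In WT cluster 18, 45.9% of the cells had at least 1 UMI of it. The highest CF clusters were 19 and 18, with 29.0 CPM (25.6 to 32.8) and 24.6 CPM (21.6 to 27.9), and 45.9% of the cells of CF cluster 19 had a UMI. SPINK1, a trypsin inhibitor, and TFF3 were among the leading genes of both CF clusters. The 5 richest clusters held 62.0% of the WT UMIs and 73.6% of the CF UMIs. Neither CF cluster 18 nor 19 had a cell at day 2, when the gene was lowest. Thinned to 3000 UMIs, the share of cells with a UMI went from 2.46% to 5.70% in WT and from 0.224% to 2.52% in CF between day 2 and day 9. The lowest classes at day 9 were ductal in WT (0.334%, median 14706 UMIs) and centroacinar in CF (1.11%, median 20485 UMIs).

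BPIFB1 was concentrated in 1 WT cluster. WT cluster 17 (603 cells) held 74.5% of the WT BPIFB1 UMIs in 2.59% of all WT UMIs, at 358 CPM (346 to 369.5), and 69.2% of its cells had a UMI. The other leading genes of this cluster included the trefoil factors TFF1 and TFF2, lactoferrin (LTF), the amino acid transporter SLC6A14 and the transcription factor CREB3L1. Among clusters of at least 50 cells, WT clusters 30 and 29 followed with 75.7 CPM (69.1 to 82.8) and 39.3 CPM (34.1 to 45.0). WT clusters 17, 30 and 29 held 89.0% of the UMIs. LTF, SLC6A14 and CREB3L1 were also among the 10 leading genes of clusters 30 and 29. In CF the richest cluster of ordinary depth was cluster 7, with 16.9 CPM (14.9 to 19.1) and 41.7% of the CF UMIs, and it too was led by TFF1 and TFF2 beside WFDC2. Of its 493 cells, 473 came from day 9, when they held 85.5% of that library's BPIFB1 UMIs.

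The WT rise of BPIFB1 went with a rise in the share of cells in cluster 17. This cluster was 0.0964% (0.0354 to 0.210), 0.563% (0.380 to 0.803), 3.47% (2.97 to 4.04) and 7.50% (6.81 to 8.23) of the WT cells on days 2, 5, 7 and 9, that is 6, 30, 161 and 406 cells. The level inside it moved less, with 307 (185 to 480), 229 (191 to 273), 300.4 (281 to 321) and 394 CPM (379 to 410). All other WT cells held 0.969, 1.50, 3.72 and 8.33 CPM, and the part of free RNA in these levels was not tested. Among the other WT clusters with at least 50 cells on a day, BPIFB1 at day 9 ranged from 0 to 81.1 CPM over 17 clusters, 2 of them at 0, with a median of 1.84 CPM. At day 2 the median over 13 such clusters was 0.104 CPM, and 4 were at 0. Without cluster 17 the change from day 2 to day 9 was 2.24 in WT. On WT day 2, before cluster 17 had grown, 59.2% of the BPIFB1 UMIs lay in WT cluster 33, which was led by interferon-response genes such as IFIT3, ISG15 and MX1.

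**Figure D2:**
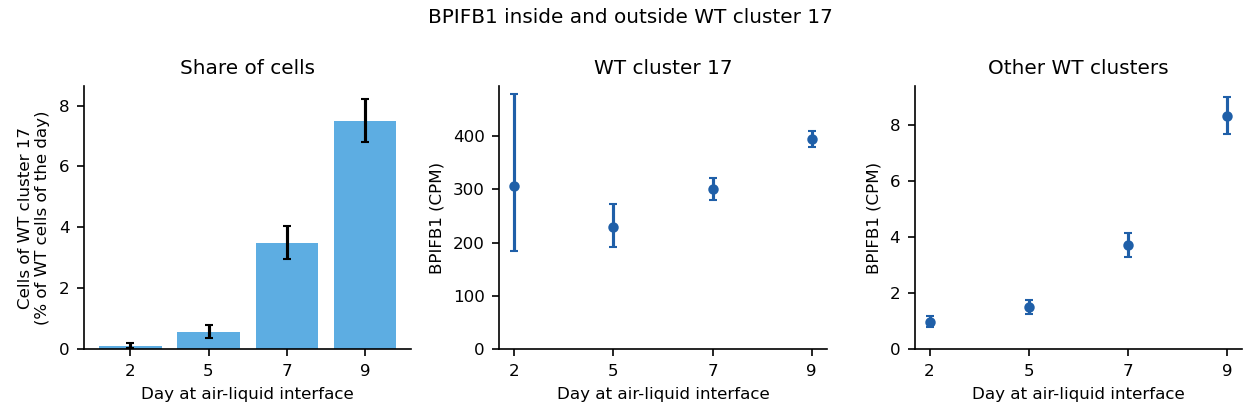
Left, the share of WT cells in WT cluster 17 by day with exact 95% binomial intervals; middle and right, the BPIFB1 level in CPM inside that cluster and in all other WT cells with 95% Poisson intervals. The share grew from 0.0964% to 7.50%, the level inside the cluster was between 229 and 394 CPM, and the level outside it rose from 0.969 to 8.33 CPM.

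SCGB3A1, apart from the 1 rich cell, was highest in clusters with trefoil factor genes among their leading genes. WT cluster 17 had 6.85 CPM (5.32 to 8.69), with a UMI in 35 of 603 cells, and held 68 of the 162 WT UMIs outside the rich cell. In CF, cluster 19 had 7.73 CPM (6.02 to 9.79), with a UMI in 32 of 331 cells, and the 5 richest clusters held 86.2% of the CF UMIs. The gene was at 0 in 22 of 39 WT clusters and 17 of 29 CF clusters. Other cells of WT cluster 32, the cluster of the rich cell, held 0 UMIs of it.

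SOX2 split the WT clusters into separate sets, and SCGB1A1, SCGB3A2 and BPIFB1 divided between them. SOX2 ranged from 0.806 to 4.87 CPM in 12 WT clusters and from 50.6 to 205 CPM in the other 29, with none between. CF libraries held 0.00977 to 0.0864 CPM of SOX2, against 68.5 to 114.5 CPM in WT. The SOX2-high clusters, with 69.9% of the WT UMIs, held 99.0% of the WT SCGB1A1 UMIs, at 16 CPM (15.5 to 16.5) against 0.390 CPM (0.284 to 0.521) in the SOX2-low clusters. SCGB3A2 divided alike, with 96.2% of its UMIs in SOX2-high clusters, at 19.4 CPM (18.9 to 19.9) against 1.78 (1.55 to 2.04). Many SOX2-high clusters were nonetheless low in both genes. Among clusters of at least 50 cells the median SOX2-high cluster held 2.58 CPM of SCGB1A1 and 5.08 CPM of SCGB3A2, beside 0.321 and 1.03 CPM for SOX2-low clusters. BPIFB1 was on the other side, with 89.9% of its UMIs in SOX2-low clusters, at 37.1 CPM (36.0 to 38.2) against 1.79 (1.63 to 1.95). Most SOX2-low clusters were nonetheless low in it, with a median cluster at 1.70 CPM beside 0.692 CPM among SOX2-high clusters, and WT clusters 17 and 30 alone held 74.5% and 10.1% of the WT UMIs. SCGB3A1 changed sides with its single rich cell, with 84.9% of the WT UMIs in SOX2-high clusters with that cell and 38.9% (63 of 162) without it. For BPIFB1, WT clusters 29 and 40 were exceptions. WT cluster 29 had 39.3 CPM of BPIFB1 beside 82.3 CPM of SOX2. WT cluster 40, of 29 cells, had 31.5 and 65.9 CPM of BPIFB1 on days 7 and 9, beside 71.0 CPM of SOX2.

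The same division showed in single cells. At WT day 9, 79.7% (75.2 to 83.7) of the cells with an SCGB1A1 UMI also held a SOX2 UMI, against 51.0% (49.6 to 52.4) of those without, at median depths of 15851 and 14858 UMIs. Among SCGB3A2-positive cells the share was 72.2% (69.4 to 75.0) against 48.6% (47.1 to 50.1), at median depths of 15832 and 14713.5 UMIs. Among BPIFB1-positive cells it was 21.9% (18.5 to 25.5) against 56.5% (55.1 to 57.9), although they were the deeper cells (median 16563 against 14741.5 UMIs). For SCGB1A1 the WT shares on days 2, 5 and 7 were 79.6% against 69.7%, 77.0% against 46.5% and 63.6% against 51.0%. Cells were not thinned here, and the SCGB1A1-positive cells were the deeper ones on each day.

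**Figure D3:**
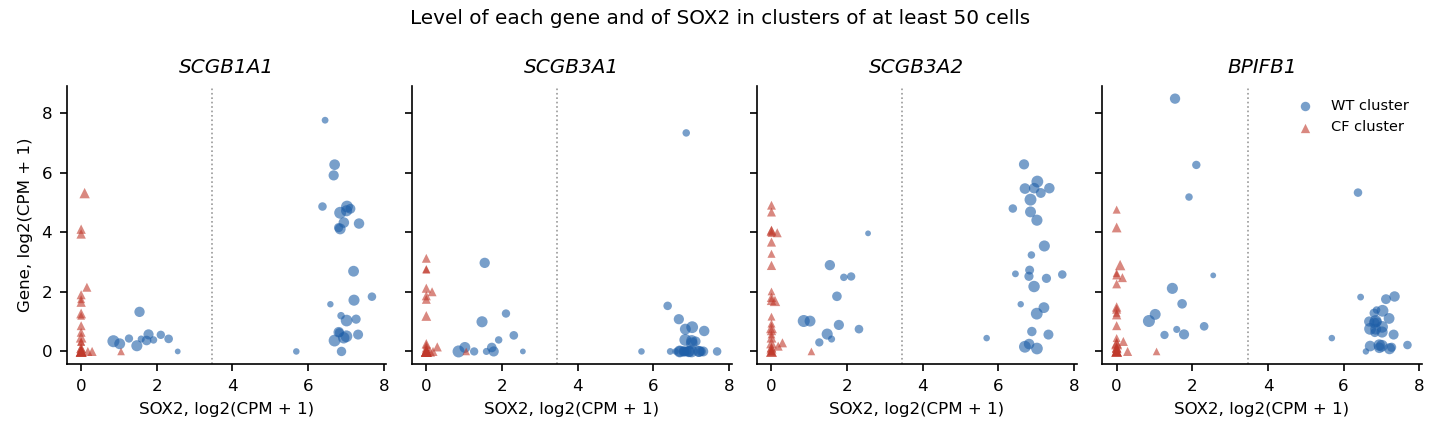
Each point is a WT (blue circle) or CF (red triangle) cluster of at least 50 cells, sized by its cell number, with SOX2 on the horizontal and the named gene on the vertical axis, both as log2(CPM + 1); the dotted line marks 10 CPM of SOX2. Clusters rich in SCGB1A1 and SCGB3A2 lie at the right among WT clusters, the cluster richest in BPIFB1 (358 CPM) lies at the left, and the high SCGB3A1 point is the cluster of the single rich cell. The highest SCGB1A1 point, from another WT cluster, also rests mostly on a single cell.

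Set beside these WT subsets day by day, CF cells were not alike for all members. For SCGB1A1, the SOX2-low WT clusters held 0.613, 0.108, 0.664 and 0.465 CPM on days 2, 5, 7 and 9, and the CF cells 10.4, 0.630, 0.979 and 0.440 CPM. From day 7 on the CF intervals overlapped those of the SOX2-low WT cells, and at day 2 CF lay nearer to the SOX2-high level of 14.3 CPM (13.6 to 15.1). For SCGB3A2 the SOX2-low WT clusters held 1.23, 1.21, 1.82 and 3.10 CPM, and the SOX2-high ones 14.3, 16.5, 18.5 and 31.4 CPM. CF cells, at 0.958 CPM, had the SOX2-low level at day 2 and lay between the subsets from day 5 on. For BPIFB1 the SOX2-low WT clusters held 8.03, 5.50, 35.6 and 112 CPM, above CF on every day. The SOX2-high WT clusters held 0.120, 0.438, 2.32 and 5.38 CPM of BPIFB1, below CF on days 2 and 5 and with intervals overlapping those of CF on days 7 and 9.

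**Figure D4:**
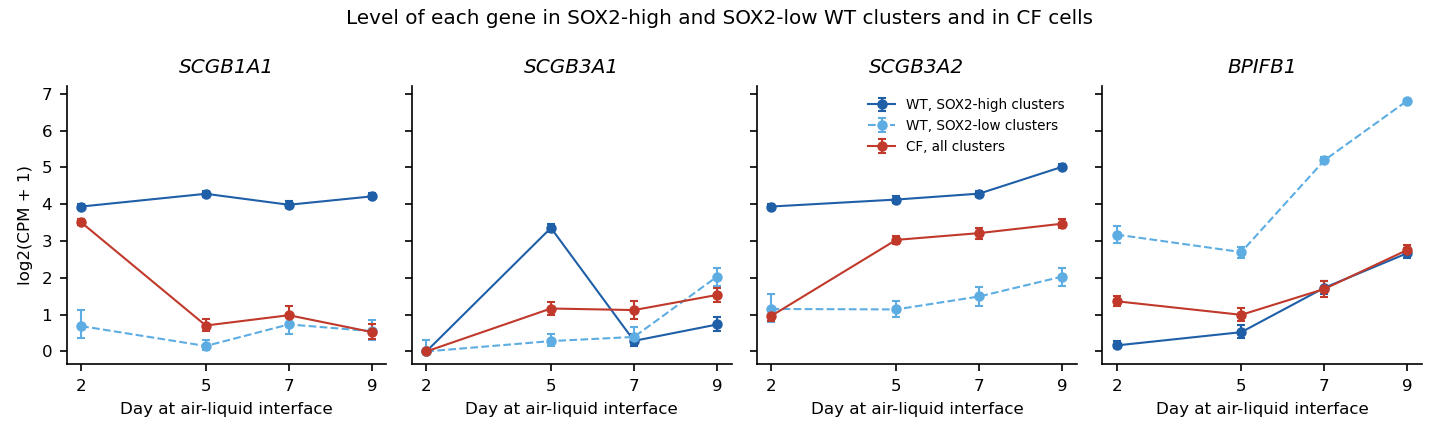
Level of each gene as log2(CPM + 1) by day in the SOX2-high WT clusters (dark blue), the SOX2-low WT clusters (light blue, dashed) and all CF cells (red), with 95% Poisson intervals. CF approaches the SOX2-low line for SCGB1A1 after day 2, lies between the lines for SCGB3A2 after day 2, and runs with the SOX2-high line for BPIFB1 on days 7 and 9; the SCGB3A1 peak at day 5 is the single rich cell.

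UMIs of SCGB1A1 and SCGB3A2 were found in the same cells, though much of this went with shared clusters. Of the WT cells with a UMI of either gene, 49.6% to 66.0% held 1 UMI of it, depending on gene and day. The part of free RNA was not tested. In WT, 72, 79, 74 and 127 cells held a UMI of both on days 2, 5, 7 and 9, where the product of their separate shares gave 20.6, 23.5, 26.7 and 67.3 cells. After thinning the counts were 6, 12, 14 and 17 against 2.14, 2.08, 2.72 and 6.56. Within clusters the gap was smaller, with 55 cells against 38.8 in WT cluster 13, 60 against 46.9 in WT cluster 18 and 72 against 63.5 in WT cluster 3. It was absent in WT cluster 10, with 18 against 20.4, and in WT cluster 21, with 17 against 17.8. SCGB3A2 and BPIFB1 were found together in 5, 11, 37 and 91 WT cells in order of day, against 4.46, 7.11, 30.9 and 103 by the product of shares. In CF at day 9 that pair was found in 36 cells against 16.8, but after thinning 1 cell was left against 0.554. Within CF cluster 7 the pair was found in 28 cells against 31.0. SCGB3A1 and BPIFB1 were found together in 36 cells at WT day 9 against 7.11, and in 6 against 1.16 after thinning. Within WT cluster 17 the counts for them were 31 against 24.2.

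Over clusters of at least 50 cells (39 in WT, 29 in CF), Pearson correlations of log2(CPM + 1) differed between the genotypes. They are a description only, the clusters sharing libraries and depth. SCGB1A1 and SCGB3A2 had r of 0.77 in WT and 0.20 in CF. The WT clusters included the one highest in SCGB1A1, whose level rested mostly on a single cell. The WT correlations of SCGB1A1 given here were not recomputed without that cell. SCGB3A2 had r of 0.20 with SCGB3A1 (0.31 without the single SCGB3A1-rich cell) and 0.14 with BPIFB1 in WT, and 0.85 and 0.73 in CF. Only some of the 20 listed regulators with at least 30 UMIs are named here. SPDEF, the mucous-cell transcription factor, had r of 0.75 with SCGB3A2 in WT and 0.91 in CF, and 0.65 and 0.18 with SCGB1A1. With BPIFB1 it had 0.42 and 0.74, and with SCGB3A1 0.57 (0.60 without the single SCGB3A1-rich cell) and 0.86. FOXA2 had r of -0.64 and -0.69 with SCGB3A2, and -0.62 in WT and 0.12 in CF with SCGB1A1. FOXA1 had r of 0.53 and 0.46 with SCGB3A2, and 0.39 in WT and -0.17 in CF with SCGB1A1. NKX2-1 had r of 0.42 in WT and -0.32 in CF with SCGB1A1, and 0.37 and -0.13 with SCGB3A2. CREB3L1, a transcription factor of secretory cells, had r of 0.83 and 0.71 with BPIFB1, and 0.23 in WT and 0.81 in CF with SCGB3A2.

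Among 9971 genes reaching 10 CPM in a cluster of each genotype, the genes most like each member were ranked by the smaller of their WT and CF correlations. For SCGB1A1 they were LOC101677064, the cargo receptor gene SURF4, the fatty acid activating enzyme gene ACSL1, the cytokine gene CLCF1 and DUOXA2, which matures a peroxide-making oxidase, with a smaller r of 0.76 down to 0.71. For SCGB3A2 they were ENPP3, GPD1L, PROM1 (CD133), ICAM3 and WDR72, with a smaller r of 0.87 to 0.85. BPIFB1 had IGSF5, CORO2B, LTF, SLC6A14 and TREX2, with 0.82 to 0.78. SCGB3A1 had CLCA1, VPS50, TFF3, CORO2B and AP3M1, with 0.61 to 0.58, but this ranking rested on the single rich cell of WT cluster 32. Without that cell, an alternative chosen after seeing the data, 0 of these 5 genes were among the 5 most alike, which were TFF1, LOC101673075, EGF, LTF and SLC6A14 with a smaller r of 0.83 to 0.77. The WT correlation of SCGB3A1 with BPIFB1 was 0.37 with the cell and 0.81 without it. The ranking for SCGB1A1 also took in the WT cluster highest in that gene, whose level rested mostly on a single cell. The SCGB1A1 ranking was not repeated without that cell. Several of the most alike genes differed from the members over libraries. LTF, an iron-binding antimicrobial protein, reached 116 CPM in WT and 112 CPM in CF at day 9, where BPIFB1 stood at 37.8 and 5.78 CPM. PROM1 was 61.4 to 343 CPM in WT libraries and 1.74 to 9.49 CPM in CF libraries, a wider gap than that of SCGB3A2 on each of the 4 days.

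The annotated relatives of the members were mostly at or near 0. Of 7 other secretoglobin symbols, 2 were annotated and 1 had at least 30 UMIs, namely SCGB1C1 with 32. Of 12 other genes of the BPI fold, 9 were annotated under these symbols and 1 had at least 30 UMIs, BPIFB6 with 336, at up to 1.27 CPM in WT and 0.374 CPM in CF. BPIFA1, the major airway member of that family, had 0 UMIs in all libraries. Among 5 genes reported as receptors or binding partners of secretoglobins only SDC1 had at least 30 UMIs, while MARCO had 5, CUBN 11, and LRP2 and FPR2 had 0.

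Other genes listed as airway secretory were present in part. Of 27 such genes 21 were annotated and 15 had at least 30 UMIs, while 9 were at 0 or not annotated. The study used some of the 15, such as KRT7, TSPAN8 and TFF3, as markers of its own pancreatic classes. Of the 15 genes, 0 were at least 2-fold higher and 2 at least 2-fold lower in CF on all 4 days, beside 0.980% and 1.31% of all genes. These were WFDC2, with 128 to 11815.1 CPM in WT and 0.469 to 271 CPM in CF, and STEAP4, with 2.40 to 24.0 and 0.176 to 0.480 CPM. Others went the other way on some days: LTF was higher in CF on days 2, 5 and 7 by 1.84, 3.50 and 3.31 on the log2 scale, and MUC5AC, a gel-forming mucin gene, by 4.68, 2.46 and 1.02. The median log2 difference of the 15 genes was 0.75, -0.10, -0.88 and -1.44 in order of day. Of 21 regulators of secretory cells 20 had at least 30 UMIs. NKX2-1, SPDEF and SOX2 were at least 2-fold lower in CF on all 4 days, as were 1.31% of all genes. Others were lower on all 4 days without reaching 2-fold on each, such as CEBPD, with a log2 difference of -2.89 at day 2 and -0.88 at day 9. NKX2-1 had 29.5, 11.6, 15.8 and 12.5 CPM in WT and 0.195, 0.378, 1.01 and 0.60 CPM in CF. SPDEF had 4.57, 10.3, 17.1 and 15.6 CPM in WT and 0.254, 4.0, 3.57 and 3.46 CPM in CF. CF day 2, with SCGB1A1 at 10.4 CPM, had the lowest library levels of NKX2-1 and SPDEF, from 20 and 26 UMIs. Their levels within the clusters that held SCGB1A1 are not given, and a link to SCGB1A1 was not tested. FOXA1 lay between 100.2 and 157.6 CPM in all libraries, and its log2 difference between CF and WT stayed between -0.20 and 0.22. FOXA2 was 8.60 to 12.1 CPM in WT and 26.1, 13.4, 18.6 and 17.7 CPM in CF, with its widest log2 difference, 1.50, at day 2.

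Markers of other epithelial cell types of the lung ranged from near 0 to high levels. Over the 10 ciliated cell markers 5 had at least 30 UMIs, and their sum was 0.463 to 0.991 CPM in WT and 0.440 to 2.30 CPM in CF, with SNTN at 0. Of 7 basal cell markers 5 had at least 30 UMIs and NGFR had 22. KRT5, TP63 and COL17A1 were present in all libraries of both genotypes, KRT5 at 364 to 1076.7 CPM in WT and 370.3 to 887 CPM in CF, and TP63 at 29.4 to 86.4 and 60.8 to 101 CPM. KRT15 was at least 2-fold lower in CF on all 4 days, as were 1.31% of all genes, with 16.8 to 131 CPM in WT and 1.60 to 17.4 CPM in CF. The study used KRT5 and KRT15 among its markers of ductal clusters, so they are not particular to basal cells here. DLK2 was 22.0 CPM at WT day 2 and 0.389 CPM at WT day 9. Of 7 alveolar markers 6 had at least 30 UMIs. SFTPD and NAPSA were at least 2-fold lower in CF on all 4 days, beside 1.31% of all genes. The summed level of the 6 was 26.6 to 55.2 CPM in WT and 5.88 to 8.09 CPM in CF. SFTPD, a surfactant protein gene, had 13.9 to 43.7 CPM in WT and 1.30 to 3.86 CPM in CF. Their part in the levels of the members was not tested.

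In the RefSeq annotation of the ferret assembly ASM1176430v1.1, which places none of the 4 genes on a named chromosome, SCGB1A1 spans 8181657 to 8184897 and SCGB3A1 spans 10898911 to 10900400 of their scaffolds. SCGB3A2 spans 14564168 to 14567780 and BPIFB1 spans 2956276 to 2976662. The genes on either side differed in how they moved. ASRGL1, before SCGB1A1, held 14.6 to 19.8 CPM in WT and 16.1 to 21.6 CPM in CF. CUNH5orf46, the gene before SCGB3A2, was lower in CF on every day, as SCGB3A2 was, with 0.271 to 1.42 CPM in WT and 0.0800 to 0.336 CPM in CF. Its CF levels came from only 20, 24, 5 and 4 UMIs in order of day, and a link between the genes was not tested. SPINK1, the gene after SCGB3A2, had 0.00873 to 2.75 CPM in WT and 0.889, 29.8, 58.4 and 261 CPM in CF, so this neighbour was higher in CF on every day while SCGB3A2 was lower. BPIFA1 and LOC101685469, on the flanks of BPIFB1, were at 0 in all libraries.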

How the data were processed

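Single-cell RNA was measured in 8 libraries, and genotype and day came from the sample titles. Per the study and its processing notes, the authors mapped and counted with Cell Ranger 5.0.1 against an improved annotation of ASM1176430v1.1, and used Seurat in R 4.1.2, setting a minimum of 200 genes and a maximum of 20% mitochondrial reads per cell, removing doublets, merging libraries without batch correction and clustering each genotype alone. The deposited UMI counts per gene and barcode were summed over retained cells. Deposited percent values of mitochondrial UMIs were used as given. The deposited log-normalized table was not used, and no result is given from the deposited pseudotime scores. Of 44243 barcodes 32945 were retained, and the summed UMIs of 32868 lay within 0.1% of the deposited totals. Levels are CPM, log2 values use a pseudocount of 1 CPM, and intervals are exact Poisson, conditional binomial (ratios) or Clopper-Pearson (shares). With 1 library per genotype and day no test was made and no p-value is given. Clusters under 50 cells were left out of ranges and correlations. SOX2-high clusters had at least 10 CPM of SOX2. Class names were kept for 58 of 71 clusters, and for 13 other class markers led or depth was low. The members, lists and marker sets were chosen with earlier results of these data known. Named genes are the members, the 5 most alike genes of each, and genes of the lists that were called or defining; leading genes of the clusters named were added after their values were seen. Alternative scalings used TMM factors (edgeR 4.0.16) and DESeq2 1.42.0 size factors, in Python 3.11.15 and R 4.3.3. Intervals, thinning and ranking were tested on simulated data. The simulated counts were independent draws, so they could not show how the intervals hold for UMIs gathered in few cells.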

Additional observations from a re-analysis of the deposited data

Results flagged for a closer look

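Some steps between days had opposite signs in the genotypes, and these differences were not tested. On the log2(CPM + 1) scale SCGB1A1 changed by 0.29 in WT and -0.46 in CF from day 7 to day 9. SCGB3A2 changed by -0.38 in WT and 2.06 in CF from day 2 to day 5, and BPIFB1 by 0.82 and -0.37 over the same days. The difference of CF from WT also changed sign between days for a pair of genes, again without a test. For SCGB3A1 the values were -1.44, 0.80 and 0.27 on days 5, 7 and 9, with 1 cell behind the first of them. For BPIFB1 they were 0.27, -0.91, -2.19 and -2.52 on days 2, 5, 7 and 9.

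In 4 of the 8 libraries BPIFB1 was at least 2-fold higher among deposited barcodes that the authors did not retain as cells than among retained cells. It held 4.29, 37.6 and 39.6 CPM there in WT on days 2, 5 and 7 and 17.5 CPM in CF on day 9, against 1.13, 2.76, 13.8 and 5.78 CPM in the retained cells. In WT on day 9 it was 61.9 against 37.8 CPM and in CF on day 7 it was 2.97 against 2.25 CPM, while in CF on days 2 and 5 it was lower, at 1.24 against 1.57 and 0.797 against 0.993 CPM. In CF on day 9, 1 barcode held 106 of the 130 UMIs. In WT on day 5, 419 of the 436 UMIs lay in 835 barcodes that met the stated limits on genes and mitochondrial reads, while on day 7, 651 of 790 lay in 1612 barcodes that did not. Why they were left out was not tested.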

How the results depend on the processing

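The mean difference of CF from WT over the 4 days moved by no more than its SD over days for all 4 genes under every alternative. That SD holds the time course itself and is wide beside the means, so this is a weak limit. The means ran from -2.28 to -1.15 for SCGB1A1, -1.28 to -0.78 for SCGB3A2 and -1.68 to -0.65 for BPIFB1. For SCGB3A1 they ran from -0.35 to 0.45, so its sign was not settled. Changes from day 2 to day 9 depended more on the setting, and the cause was not tested. With TMM and DESeq2 factors the WT change was -0.13 and -0.17 for SCGB1A1 and 0.69 and 0.65 for SCGB3A2. With all deposited barcodes it was -0.15 for SCGB1A1 in WT and 1.71 for BPIFB1 in CF. A pseudocount of 5 CPM gave -1.50 for SCGB1A1 in CF, 0.36 and 0.46 for SCGB3A1 in WT and CF, 0.65 and 1.34 for SCGB3A2, and 2.8 and 0.71 for BPIFB1. Without the richest cluster of each genotype the changes in WT and CF were 1.69 and -2.16 for SCGB1A1, 0.35 and 2.09 for SCGB3A2, and 2.24 and -0.24 for BPIFB1, and 0.97 for SCGB3A1 in CF. The clusters left out for SCGB1A1 came almost wholly from day 2. The CF cluster left out for BPIFB1 came almost wholly from day 9, so these shifts were set by the choice of clusters. The same setting turned the differences of CF from WT to 0.63 for SCGB1A1 at day 2, 0.88 for SCGB3A1 at day 5 and -0.31 for SCGB3A1 at day 9, a turn set by the choice of clusters, since the WT cluster left out held no SCGB3A1 UMI at day 9 and the CF cluster held 52 of 95.

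A pair of alternatives was chosen after seeing the data. Without the cell of each library with most UMIs of the gene, SCGB3A1 at day 5 turned to 0.68. Without the 13 clusters that did not keep their names, the CF change was -2.73 for SCGB1A1 and 0.95 for SCGB3A1, and the differences turned to -0.30 for SCGB3A1 at day 9 and 0.10 for SCGB3A2 at day 5. Leaving out cells under 3000 UMIs moved none of these results beyond its spread. The CF levels of SCGB1A1 after day 2 rest on 22 to 45 UMIs, and that of SCGB3A1 in WT at day 7 on 21 UMIs, so their counting error is wide. No library was replicated, so animals, culture and genotype cannot be told apart.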
